A study of Mus musculus with 9 samples.

Results

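Interferon-inducible GTPases were followed across macrophages of the mouse lung with and without a tumor. They were 10 genes of 24346 in the files, found by gene symbol: the guanylate-binding protein genes Gbp2, Gbp3, Gbp5, Gbp7 and Gbp9, and the immunity-related GTPase genes Irgm1, Irgm2, Igtp, Iigp1 and Ifi47. All 10 were present in each file. RNA sequencing covered 9 samples of sorted macrophages in 3 groups of 3, from C57BL/6 mice at postnatal week 10. Control mice were given vehicle, and tumor mice were given Lewis lung carcinoma (LLC) cells, a C57BL/6 cancer line that carried the fluorescent protein tdTomato, in the left lung. Ctrl-AM were Siglec-F+ F4/80+ alveolar macrophages (AMs) of control mice, Tumor-AM were the same type of cell from tumor mice, and Tumor-macrophage were Siglec-F- F4/80+ CD11b+ cells of tumor mice, taken as tumor-associated macrophages (TAMs). All were sorted as autofluorescent CD45+ cells. Each group came from 3 mice, per the study. Whether the Tumor-AM and Tumor-macrophage samples came from the same mice was not given in the sources used here. Tumor and control mice were bred separately, so breeding and tumor cannot be told apart between them.

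Values are FPKM, fragment counts scaled to transcript length and to the mapped fragments of the sample. Depth was estimated at 10000000 to 12600000 reads per sample. Summed over 7 markers of AMs (Siglecf, Marco, Pparg, Chil3, Ear2, Car4 and Fabp4), Ctrl-AM held 28200 to 33700 FPKM, Tumor-AM held 24600 to 41000 FPKM and Tumor-macrophage held 203 to 499 FPKM. Over 5 markers of monocyte-derived macrophages (C1qa, C1qb, Ccr2, Cx3cr1 and Ly6c2) the sums were 16.7 to 23.8, 54.5 to 95.8 and 9050 to 9460. None of these markers was listed at 0 throughout a group. The labels matched the markers, and all samples are bulk RNA, in which fewer cells of a type and less RNA per cell cannot be told apart.

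Cells make these GTPases when interferons, above all interferon-gamma, signal through Jak kinases. The signal reaches promoters at the gamma-activated sequence (GAS), and interferon regulatory factors (IRFs) such as Irf1 bind repeated GAAA elements. Guanylate-binding proteins (GBPs) assemble on vacuoles of parasites and on bacteria and open them to the cytosol. Immunity-related GTPases (IRGs) come in 2 kinds. Regulators (Irgm1, Irgm2 and Igtp, also called Irgm3) sit on the cell's own membranes and hold the effectors inactive there, and effectors (Iigp1, also called Irga6, and Ifi47, also called Irgd) load onto the vacuoles of pathogens.

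Sequence near the starts of the genes is shown first, as most members carried the letters of these elements. RefSeq promoter windows of GRCm38.p6, each of 300 bases (250 before and 50 after a start), were held for 8 of the 10 members. There was no entry for Gbp9 or Iigp1. The IRF pattern searched was GAAANNGAAA and the GAS pattern was TTCNNNGAA, each on both strands. The IRF pattern was found in 7 of the 8 genes, and in 3.44% of all 32851 windows. GAS letters were found in 4 of the 8 genes, and in 8.3% of all windows. All 4 (Gbp5, Gbp7, Irgm2 and Igtp) also held the IRF pattern, a combination present in 0.454% of windows. Ifi47 matched neither, and Gbp3 had a second window that matched neither. The stretches below hold the matches of 6 members, with matched letters in capitals, read 5′ to 3′ on the strand of the gene. In the GBP genes the IRF letters lie on the opposite strand and read as TTTC repeats.
Igtp (chr11:58199507-58199535, + strand): ccatTTCTAGGAActGAAACTGAAAgctg
Irgm2 (chr11:58214898-58214926, + strand): ccatTTCCAGGAActGAAACTGAAAgctg
Irgm1 (chr11:48871428-48871457, - strand): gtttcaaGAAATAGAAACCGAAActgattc
Gbp2 (chr3:142620594-142620623, + strand): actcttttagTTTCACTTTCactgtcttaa
Gbp3 (chr3:142559992-142560021, + strand): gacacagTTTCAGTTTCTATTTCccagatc
Gbp7, IRF (chr3:142530273-142530302, + strand): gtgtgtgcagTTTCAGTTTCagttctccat
Gbp7, GAS (chr3:142530229-142530258, + strand): tTTCCAGGAAaagcagaagcTTCTCAGAAa

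The Igtp and Irgm2 stretches were identical at 28 of 29 bases. In both, GAS letters began 11 bases before the IRF letters. That arrangement occurred in 5 windows of the 32851 (0.0152%), which belonged to Igtp, Irgm2, their relatives Tgtp1 and Tgtp2, and Gm12185. Distance to the start differed, with the IRF letters beginning at -34 in Igtp and at -64 in Irgm2. In Gbp3 and Irgm1 the capitals cover 2 overlapping matches of the IRF pattern. The Gbp2 and Irgm1 stretches overlap annotated exons of longer GENCODE transcripts. A match is a description of letters, and binding was not measured.

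**Figure D1:**
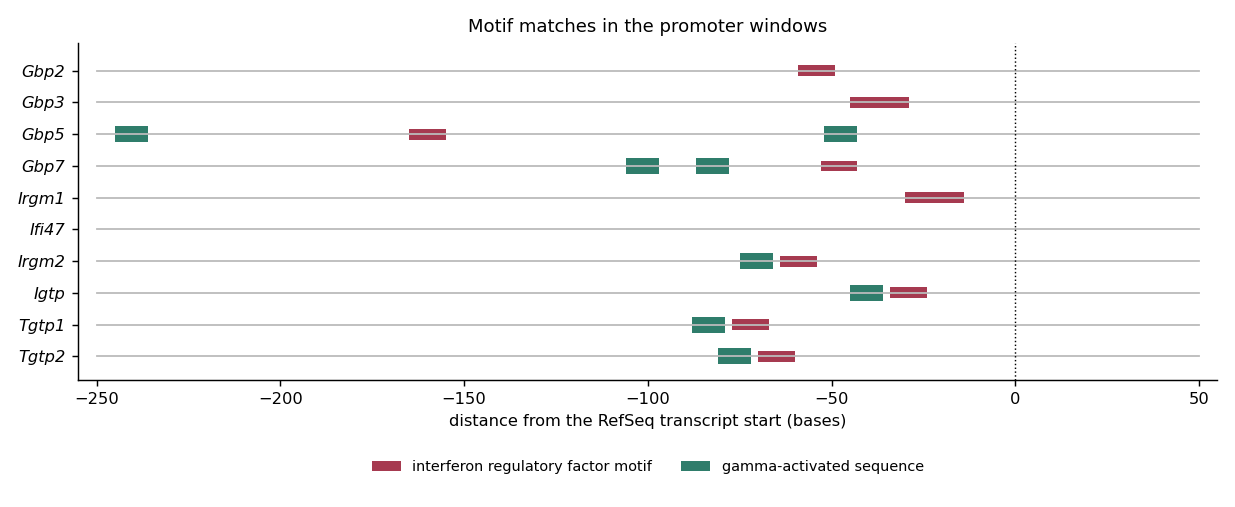
Matches of the IRF and GAS patterns (coloured blocks) by distance from the RefSeq start in bases, one row per gene, for the 8 members with a window and for Tgtp1 and Tgtp2; of Gbp3 the first window is drawn. The matches of Igtp, Irgm2, Tgtp1 and Tgtp2 show the same spacing, and Ifi47 has none.

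The first comparison, Tumor-AM against Ctrl-AM, asks how AMs of the tumor-bearing lung differ from those of a lung without tumor. It was fitted with limma on log2(FPKM + 1), where adding 1 shrinks the changes of genes with low FPKM. Gbp2, Gbp3, Igtp, Iigp1 and Ifi47 rose, 5 of the 10 members, at a Benjamini-Hochberg adjusted p below 0.05. Of all 10686 genes tested, 7.11% rose. The median log2 change was 0.52 over the members and 0.01 over all genes. In 6 members, the 5 named and Irgm1, every Tumor-AM sample lay above every Ctrl-AM sample, as in 18.9% of all genes.

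This count depended on the setting. Without a filter on low values, which raised the number of genes tested to 24346 and cut the share called in either direction from 10.3% to 2.07%, it was 1 (Gbp3). Leaving out the first Ctrl-AM sample left 2 (Gbp2 and Gbp3), and leaving out the third left 3 (those and Iigp1). Gbp3 passed under all 18 alternatives, Gbp2 under 17, Iigp1 under 16, Ifi47 under 15 and Igtp under 6.

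Gbp3, a GBP of the cluster on chromosome 3, showed the largest log2 change of the 10 over all samples, and Gbp2 took that place without the second Ctrl-AM sample (1.54 against 1.42) or the first Tumor-AM sample. Its level was 1.87, 1.40 and 1.52 FPKM in Ctrl-AM and 6.25, 7.37 and 5.20 FPKM in Tumor-AM. The lowest Tumor-AM sample was well above the highest Ctrl-AM sample, and the log2 change was 1.48 ± 0.13 (SE, limma adjusted p = 0.000227, n = 3 per group). Gbp2, which is needed in mice for control of Toxoplasma, measured 7.82, 12.6 and 7.91 FPKM in Ctrl-AM and 19.8, 33.8 and 22.6 FPKM in Tumor-AM. The groups did not overlap, although the second sample was the highest of each, and the log2 change was 1.33 ± 0.24 (SE, limma adjusted p = 0.00666).

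The remaining GBP genes did not pass the test. Gbp7, which lies next to Gbp3, had overlapping levels of 5.36, 6.83 and 6.72 FPKM in Ctrl-AM and 7.75, 7.40 and 6.00 FPKM in Tumor-AM. Its log2 change was 0.14 ± 0.13 (SE, limma adjusted p = 0.576). Gbp7 shares 11.43% of its 75-base windows of transcript with other genes, more of them with Gm43802, which overlaps it, than with Gbp3. Gbp3 shares 2.68% of its windows, with Gbp7. Some reads of Gbp7 could be split with either gene. Gbp9 ranged from 0.542 to 1.17 FPKM in Ctrl-AM and from 0.675 to 1.56 FPKM in Tumor-AM (limma adjusted p = 0.498). It overlaps Gbp4 and Gbp8 on chromosome 5, and the use of strand in counting was not given.

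Gbp5, which has been linked to assembly of the Nlrp3 inflammasome, was near the limit of detection in AMs. In Ctrl-AM the files list it at 0, 0 and 0.228 FPKM, and in Tumor-AM at 0.215, 0.964 and 0.208 FPKM. On its longest transcript these are at most 10.8 and 40.9 estimated reads. At this depth a difference between the AM groups was not detectable (log2 change 0.41 ± 0.24, SE, limma adjusted p = 0.329). Gbp5 reached the filter, an FPKM of at least 1 in 3 samples, only in Tumor-macrophage.

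Both effector IRGs rose in Tumor-AM. In Ctrl-AM, Iigp1 stood at 0.536, 1.10 and 0.627 FPKM, and the Tumor-AM samples held 3.06, 1.96 and 2.55 FPKM. The mean was 3.35-fold higher, and limma gave a log2 change of 1.01 ± 0.20 (SE, adjusted p = 0.0111). The Ctrl-AM samples held 6.80, 8.58 and 7.99 FPKM of Ifi47, against 13.4, 19.8 and 13.3 FPKM in Tumor-AM, 1.99-fold higher in the mean. Its groups did not overlap either, and the log2 change was 0.89 ± 0.19 (SE, limma adjusted p = 0.0172).

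The 3 regulators showed smaller log2 changes. Igtp measured 6.68, 9.16 and 7.55 FPKM in Ctrl-AM and 10.4, 16.5 and 11.5 FPKM in Tumor-AM. Its log2 change of 0.63 ± 0.18 (SE) was just past the threshold (limma adjusted p = 0.0494), and was lost under 12 of 18 alternatives, with adjusted p from 0.0111 to 0.231. Irgm1, whose loss in mice weakens resistance to mycobacteria, measured 14.4, 15.2 and 17.0 FPKM against 18.4, 25.2 and 18.7 FPKM. These did not overlap, but the change of 0.38 ± 0.18 did not pass (SE, limma adjusted p = 0.214). Irgm2 ranged from 1.01 to 1.51 FPKM in Ctrl-AM and from 0.750 to 2.1 FPKM in Tumor-AM (limma adjusted p = 0.696). Igtp and Irgm2 overlap on chromosome 11 and share 8.37% and 4.28% of their windows, and whether their changes differ was not tested.

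**Figure D2:**
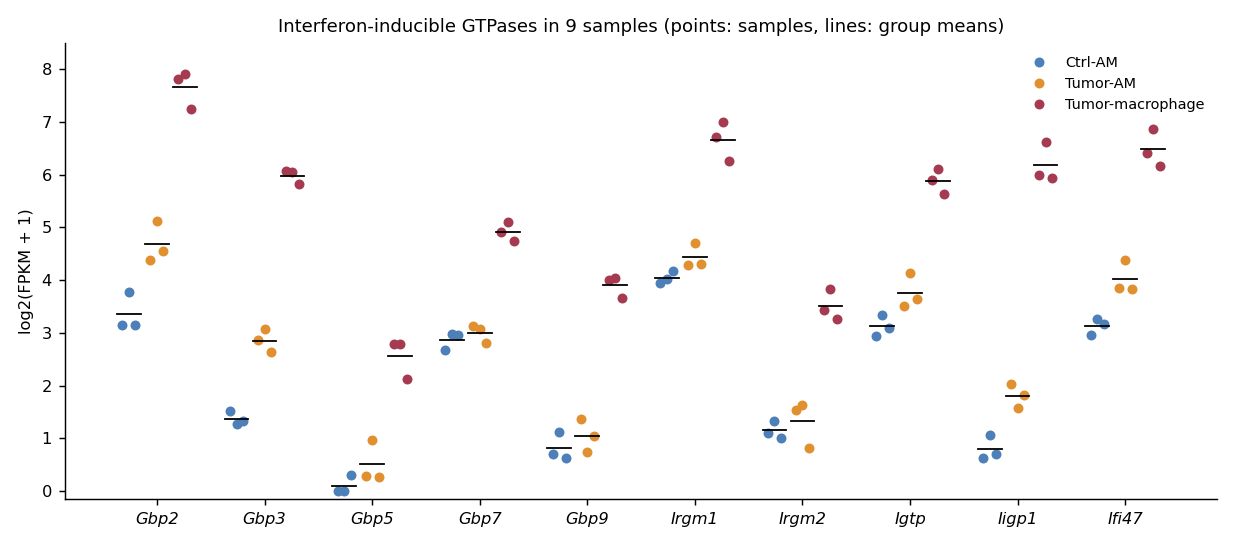
Level of each member as log2(FPKM + 1) in the 9 samples, with points for samples and black lines for group means. Tumor-macrophage samples lie above all AM samples for each of the 10 genes, while Tumor-AM and Ctrl-AM overlap for Gbp5, Gbp7, Gbp9 and Irgm2.

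The second comparison, Tumor-macrophage against Tumor-AM, sets the 2 populations of the tumor-bearing lung side by side. All 10 members were higher in Tumor-macrophage, against 24.2% of all genes tested. Log2 changes ran from 1.91 (Gbp7) to 4.37 (Iigp1), and the median was 2.34 against 0.00 for all genes. For all 10 the groups did not overlap, as in 27.6% of genes. The count stayed at 10 under each alternative that kept all 10 genes, and was 9 of 9 with a filter of at least 5 FPKM, which removed Gbp5. Gbp5 had entered the test through its Tumor-macrophage level and so had to differ.

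Iigp1 showed the widest gap. It measured 62.3, 96.6 and 60.5 FPKM in Tumor-macrophage, where Tumor-AM held no more than 3.06. The mean was 28.9-fold higher, and the log2 difference in limma was 4.37 ± 0.20 (SE, adjusted p = 3.67e-08). Ifi47, the other effector, measured 84.0, 115.4 and 70.4 FPKM in Tumor-macrophage. It was 5.81-fold above Tumor-AM (log2 change 2.46 ± 0.19, SE, limma adjusted p = 1.76e-06). The effectors had overlapping levels in Tumor-macrophage, 73.1 ± 20.4 and 89.9 ± 23.1 FPKM (SD, n = 3), whereas in both AM groups their ranges lay far apart.

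Among GBP genes, Gbp2 reached the highest level of any member, at 223.7, 239.8 and 149.7 FPKM. Its mean was 8.05-fold that of Tumor-AM, and the log2 change was 2.97 ± 0.24 (SE, limma adjusted p = 2.36e-06). Gbp3 reached 65.8, 65.4 and 55.3 FPKM, 9.91-fold above Tumor-AM. The other members of the chromosome 3 cluster were lower. Gbp7, to which a role in the oxidative burst has been ascribed, was at 29.2, 33.2 and 25.7 FPKM, 4.16-fold above Tumor-AM. Gbp5 was at 5.94, 5.88 and 3.33 FPKM, at 141 to 227 estimated reads well clear of the limit of detection. Gbp9 was at 14.9, 15.3 and 11.7 FPKM, a 12.7-fold higher mean.

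The regulators showed smaller ratios than Iigp1 here too. Irgm1 measured 103.8, 126.8 and 75.7 FPKM, 4.91-fold above Tumor-AM. Igtp measured 58.4, 68.2 and 48.5 FPKM, 4.56-fold above. Irgm2 measured 9.81, 13.2 and 8.58 FPKM, 6.67-fold above. Of the 10, Gbp7, Igtp and Irgm1 had the smallest ratios, and each already stood above 5 FPKM in Ctrl-AM. Gbp2 and Ifi47 also stood above 5 FPKM there, with ratios of 8.05 and 5.81.

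**Figure D3:**
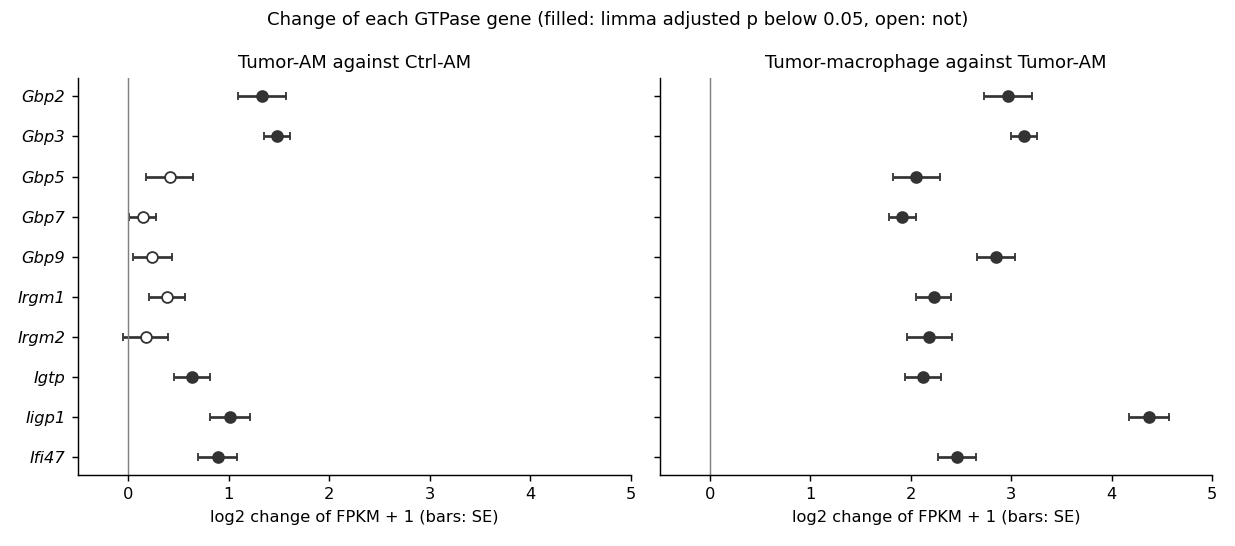
Log2 change of FPKM + 1 with its SE for each member in Tumor-AM against Ctrl-AM (left) and Tumor-macrophage against Tumor-AM (right); filled points passed the test. The left changes run from 0.14 (Gbp7) to 1.48 (Gbp3), and the right from 1.91 to 4.37, with Iigp1 apart from the rest.

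The comparison of Tumor-macrophage with Ctrl-AM shares samples with both others. All 10 members were again higher, against 27.7% of genes, with log2 changes from 2.05 (Gbp7) to 5.38 (Iigp1) and a median of 2.92. For Gbp2 the log2 change was 4.30 ± 0.24, and for Gbp3 it was 4.60 ± 0.13 (SE, both below a limma adjusted p of 0.05).

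Per length of transcript, the members kept a partly common order. In Ctrl-AM, Irgm1 led at 15.6 ± 1.34 FPKM (SD, n = 3) and its range lay apart from that of Gbp2, the next. Gbp2, Igtp, Ifi47 and Gbp7 followed at 6.30 to 9.46 FPKM, each overlapping its neighbour. Gbp3, Irgm2, Gbp9 and Iigp1 formed a lower tier of overlapping levels between 0.753 and 1.60 FPKM, and Gbp5 was last. In Tumor-AM, Gbp2 (25.4 ± 7.42 FPKM) and Irgm1 (20.8 ± 3.83) were first with overlapping ranges, then Ifi47 and Igtp. In Tumor-macrophage, Gbp2 (204.4 ± 48.0 FPKM) stood apart from Irgm1 (102.1 ± 25.6), and Iigp1 had moved from the ninth place in Ctrl-AM to the fourth. Irgm2 stood seventh in Ctrl-AM, eighth in Tumor-AM and ninth in Tumor-macrophage, and Gbp5 was last in each group. Summed over the 10, the Ctrl-AM samples held 45.3 to 57.6 FPKM, the Tumor-AM samples 81.8 to 115.7 FPKM and the Tumor-macrophage samples 509.4 to 779.8 FPKM.

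Samples of a group differed in the same way for most members. The third Tumor-macrophage sample was the lowest of its group for all 10 members and the second was the highest for 8. The second Tumor-AM sample was the highest for 7, and the second Ctrl-AM sample for 7. Among 13 genes known to respond to type I interferon, the second Tumor-AM sample was the highest for 10 and the second Tumor-macrophage sample for 12. Members of 1 sample share its library and are not independent of each other.

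Markers of monocyte-derived macrophages also differed between the AM groups, as given above, with no overlap of the summed levels. Without overlap, too, summed markers of fibroblasts were 3.24 to 6.35 FPKM in Ctrl-AM and 7.84 to 50.1 FPKM in Tumor-AM. The rise lay in Col3a1 (mean 1.13 FPKM, then 9.77) and Dcn (mean 2.52 FPKM, then 12.29). Both were by far the highest in the third Tumor-AM sample. Col1a1, Col1a2 and Pdgfra, all below the filter, overlapped between the AM groups, and the means of Col1a1 and Col1a2 were not higher in Tumor-AM. Summed markers of B cells were lower in Tumor-AM (12.7 to 16.8 FPKM, then 3.15 to 7.49). The sum for lung epithelium was lower too (103 to 243 FPKM, then 33.1 to 99.6), but not each of its markers. Epcam was lower (limma adjusted p = 0.00435), as was Sftpb, below the filter. Sftpc, Scgb1a1 and Ager overlapped, and the Ager mean was higher in Tumor-AM (2.14 FPKM, then 3.38). Scgb1a1 alone held 168.5 FPKM in the first Ctrl-AM sample and 53.2 FPKM in the first Tumor-AM sample. The difference between Tumor-AM and Ctrl-AM means was expressed as a percentage of the Tumor-macrophage mean. It ran from 2.33% (Gbp9) to 8.55% (Igtp) over the members, with Gbp2 at 7.8%, Gbp3 at 7.52% and Ifi47 at 8.54%. For the markers it was 0.233% (Cx3cr1), 0.331% (C1qa), 0.531% (C1qb), 4.58% (Ly6c2) and 6.78% (Ccr2). Over all 10 members, Gbp2, Gbp3, Gbp5, Igtp and Ifi47 lay above all 5 markers, and Irgm1 (5.11%) lay between Ly6c2 and Ccr2. Irgm2 (3.33%), Gbp7 (2.56%), Iigp1 (2.42%) and Gbp9 lay above Cx3cr1, C1qa and C1qb and below Ly6c2 and Ccr2. The members that rose had been called on this same difference, so their standing was partly set in advance. The part of RNA from TAMs or these other cells in the Tumor-AM changes was not tested.

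**Figure D4:**
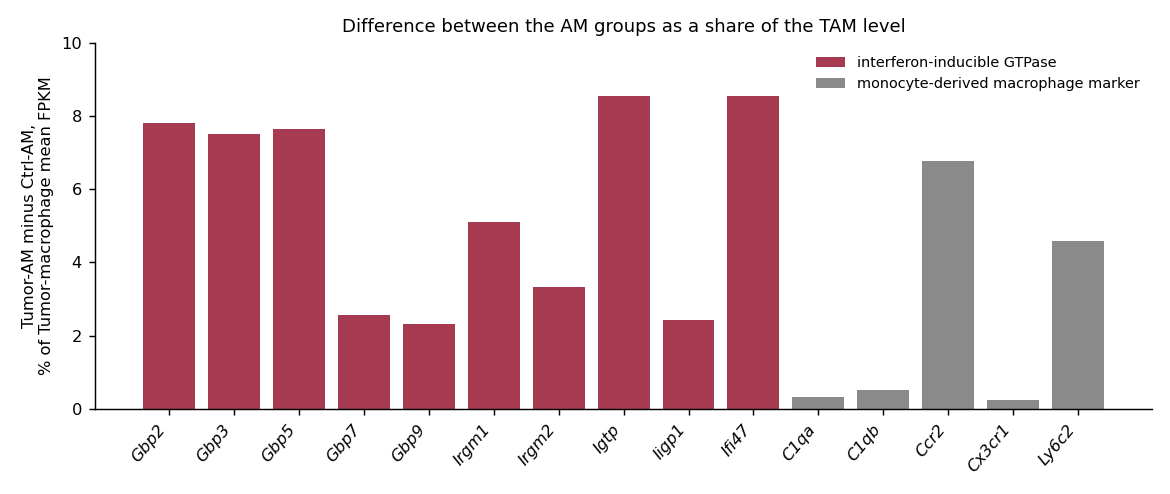
Difference between the Tumor-AM and Ctrl-AM means as a percentage of the Tumor-macrophage mean FPKM, one bar per gene, for the 10 members (red) and 5 markers of monocyte-derived macrophages (grey). Members span 2.33% to 8.55%, and the markers 0.233% to 6.78%.

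Other genes of the GBP and IRG families were examined as a list of 16, of which 11 reached the filter. Of these, 6 reached it only with Tumor-macrophage samples, which favoured a difference there. Gbp2b, Gbp4, Tgtp2 and F830016B08Rik had 0 AM samples of at least 1 FPKM and so had to differ, while Gm12250 had 2 and Gm4951 had 1. In Tumor-AM against Ctrl-AM, where 7.11% of all genes rose, Gbp6 alone of the 11 rose (log2 change 0.90 ± 0.20, SE, limma adjusted p = 0.0215). It lost the call without the first or the third Ctrl-AM sample or the first or the second Tumor-AM sample. Of its 75-base windows, 55.17% are shared with copies. Gbp8 measured 9.44, 10.8 and 9.32 FPKM in Ctrl-AM and 8.79, 3.72 and 4.99 FPKM in Tumor-AM. Its groups did not overlap in the direction opposite to the members, and it did not pass (log2 change -0.73 ± 0.23, SE, limma adjusted p = 0.0737). In Tumor-macrophage against Tumor-AM, 8 of the 11 rose, against 24.2% of all genes. Among them were Gbp2b (4.13), Gbp4 (3.63), Tgtp2 (2.93) and Gbp8 (2.26, log2 changes). Tgtp2 shares 85.16% of its 75-base windows with Tgtp1 and Gm12185, so its level cannot be assigned to it alone. Irgc1 fell by 1.55 on the log2 scale, from 2.06 to 2.88 FPKM in Tumor-AM to at most 0.443 FPKM. It had reached the filter only through the AM groups and so had to differ. Irgq did not pass (log2 change -0.17 ± 0.13, SE, limma adjusted p = 0.286).

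Of the ligands, 7 interferon genes were listed and 0 of 7 reached the filter. Ifng, which T and NK cells make, had values of 0, 0.0714 and 0 FPKM in the Ctrl-AM samples, of 0.433, 0 and 0 FPKM in Tumor-AM and of 0.719, 0.0876 and 0.561 FPKM in Tumor-macrophage. Summed markers of T and NK cells were 9.77 to 13.3, 8.63 to 23.6 and 24.7 to 45.0 FPKM in these groups. Nkg7 was the largest part in Tumor-macrophage (mean 17.3 FPKM against 8.94 in Tumor-AM). It passed as higher there, with Cd3d and Cd3g. Cd3e, Gzma and Gzmb overlapped and did not pass (limma adjusted p = 0.153, 0.574 and 0.222). Below the filter, Cd8a and Klrb1c were higher without overlap and Ncr1 overlapped. In Tumor-macrophage, the markers of B cells (31.5 to 58.2 FPKM) and of dendritic cells (18.0 to 39.5 FPKM, against 6.48 to 12.9) exceeded their Tumor-AM sums as well. Most of the dendritic cell sum was Ccr7 (mean 25.3 FPKM against 8.30). Xcr1 and, below the filter, Flt3 were also higher, while Clec9a (mean 1.29 FPKM against 1.23) and Zbtb46 overlapped. The part of these cells in the levels of Ifng and the GTPases was not tested. Ifna4, Ifna5, Ifnl2 and Ifnl3 were listed at 0 in each sample.

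Of 11 receptors and transducers of interferon signals, all of which reached the filter, 5 rose in Tumor-AM against Ctrl-AM, where 7.11% of all genes rose. The count was 3 without the first Ctrl-AM sample, the first Tumor-AM sample or the third Tumor-AM sample, 3 after rescaling to TPM and 1 without a filter. Irf1 led at 39.6, 42.6 and 34.2 FPKM in Ctrl-AM and 68.8, 117.1 and 77.8 FPKM in Tumor-AM (log2 change 1.13 ± 0.18, SE, limma adjusted p = 0.0039). Irf9, Irf8, Ifnar2 and Ifngr2 were the others, with log2 changes of 0.82, 0.45, 0.45 and 0.36. Ifngr1, the ligand-binding chain of the interferon-gamma receptor, was at 158 to 181 FPKM in Ctrl-AM and 160 to 180 FPKM in Tumor-AM (limma adjusted p = 0.985). In Tumor-macrophage against Tumor-AM, 9 of 11 rose, against 24.2% of all genes, with Ifnar1 (2.13) and Ifngr2 (1.42) showing the largest log2 changes. The log2 change of Irf1 there, 0.91 ± 0.18 (SE), was below that of each of the 10 GTPases.

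Inhibitors of the pathway were split. Socs3 rose in Tumor-AM (log2 change 1.12 ± 0.12, SE, limma adjusted p = 0.000599), 1 of 6, against 7.11% of all genes. Between Tumor-AM and Tumor-macrophage, 4 of 6 rose, against 24.2% of all genes. Usp18 was at 3.10, Socs3 at 2.82 and Socs1 at 2.52, and Ptpn2 fell by 0.38 on the log2 scale. Socs1 and Usp18, 2 of the 6, reached the filter only with Tumor-macrophage samples, which favoured a difference. Each had 2 Tumor-AM samples of at least 1 FPKM. Both ended at over 10 FPKM in each Tumor-macrophage sample.

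Among 10 tested of 11 other genes that interferon-gamma induces, 6 rose in Tumor-AM, against 7.11% of all genes. The count was 4 without any one of the Ctrl-AM samples, without the second Tumor-AM sample or after rescaling to TPM, and 2 without a filter. Serpina3g showed the largest log2 change (2.79 ± 0.22, SE, limma adjusted p = 0.000132), from 0.276 to 0.670 FPKM up to 7.61 to 11.4 FPKM. Cxcl9, a chemokine for T cells, followed at 1.52, then Tap1 (0.87), Cd274 (0.68), Psmb9 (0.37) and Psmb8 (0.35), of which the last 2 passed under 12 and 10 of 18 alternatives. Tap1, Psmb8 and Psmb9 serve antigen presentation, and Cd274 encodes a ligand of PD-1. Ciita, the master regulator of class II genes, stood at 0.690 to 1.63 FPKM and 1.03 to 1.34 FPKM (limma adjusted p = 0.987). Against Tumor-AM, 9 of the 10 rose in Tumor-macrophage, where 24.2% of all genes rose, Nos2 among them through a filter it reached only there. Cxcl9 was at 4.76 and Cxcl10 at 4.37, and Cd274 fell by 0.25 on the log2 scale.

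All 13 genes known to respond to type I interferon were tested. In Tumor-AM 7 rose, against 7.11% of all genes. They were led by Oasl2 (log2 change 2.05 ± 0.27, SE, limma adjusted p = 0.00152), Oas3 (1.42, past the threshold under 11 of 18 alternatives) and Irf7 (1.36). The count fell to 2 without the first Ctrl-AM sample, to 4 without the second and to 3 without the second Tumor-AM sample, and to 2 without a filter. Against Tumor-AM, all 13 rose in Tumor-macrophage, where 24.2% of all genes rose, by 1.01 (Oas1a) to 2.96 (Rsad2) on the log2 scale. Of these, 4 (Oas2, Mx1, Ifi44 and Cmpk2) reached the filter only with Tumor-macrophage samples, which favoured a difference. Mx1 and Ifi44 had 0 AM samples of at least 1 FPKM and so had to differ, while Oas2 and Cmpk2 each had 2.

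Genes of systems that act with or downstream of the GTPases were listed as well. Conjugation of Atg8 proteins, an autophagy reaction that places GBPs and effector IRGs on vacuoles, was represented by 13 genes. In Tumor-macrophage against Tumor-AM 8 of 13 fell, against 24.4% of all genes, with Map1lc3a (-1.36), Map1lc3b (-0.78), Atg7 (-0.70), Atg5 (-0.62) and Atg3 (-0.58) as the lowest log2 changes. In Tumor-AM Atg12 alone of the 13 passed, where 7.11% of all genes rose (0.32 ± 0.08, SE, limma adjusted p = 0.0278). It passed under 10 of 18 alternatives, and lost the call without any one of the Ctrl-AM samples or without the first or the third Tumor-AM sample. Of 8 inflammasome and pyroptosis genes, 1 rose in Tumor-AM, where 7.11% of all genes rose, and 1 fell, as did 340 of the 10686 genes. Il1b rose (2.45 ± 0.25, SE, limma adjusted p = 0.000383) and Il18 fell by 0.55 on the log2 scale. Casp4, which GBPs help to activate on bacteria, and Casp1 did not pass, at limma adjusted p of 0.175 and 0.837. In Tumor-macrophage against Tumor-AM, 2 of 8 rose, against 24.2% of all genes, and 1 of 8 fell, against 24.4%. These counts were near or below the shares of all genes. Pycard (1.11) and Gsdmd (0.50) rose and Il18 fell by 3.73 on the log2 scale.

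**Figure D5:**
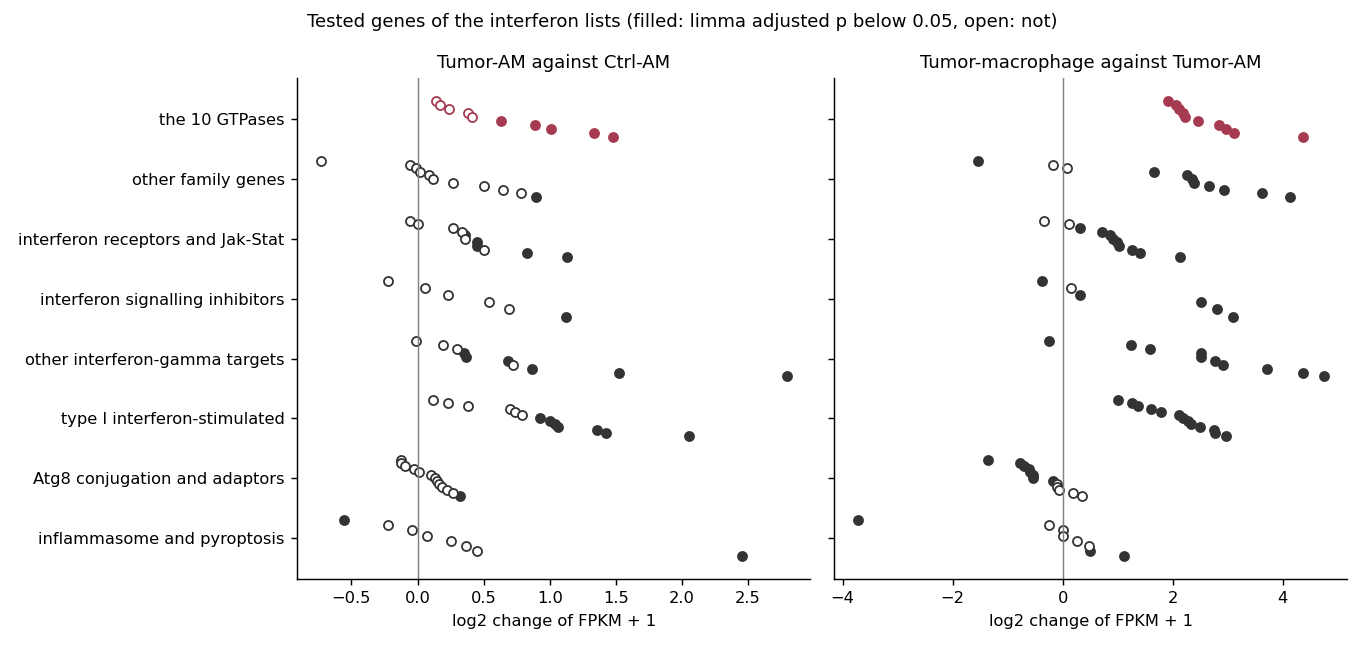
Log2 change of FPKM + 1 of each tested gene, by list, in Tumor-AM against Ctrl-AM (left) and Tumor-macrophage against Tumor-AM (right), with filled points for genes past the test. The 10 GTPases (red) all lie to the right of 1.9 in the right panel, where 8 of the 13 Atg8 genes are filled and below 0.

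Genes outside all lists were ranked by how closely they followed the mean standardised level of the 10 members over the 9 samples. Bst2, an interferon-induced protein that tethers virus particles, came first with a Pearson r of 0.998. Its Ctrl-AM samples held 50.8 to 62.4 FPKM, its Tumor-AM samples 73.0 to 89.2 FPKM and its Tumor-macrophage samples 249.0 to 295.5 FPKM. Fam26f and Serpina3f (both r = 0.997), Snx8 and Tmem173 (both r = 0.996) were next. Tmem173 encodes STING, the sensor of cyclic dinucleotides, and ran from 25.8 to 33.9 FPKM over the AM samples and from 73.4 to 90.7 FPKM in Tumor-macrophage. The 9 samples fall into 3 groups that set most of such an r, and 858 tested genes had an r above 0.95.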

How the data were processed

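RNA of 9 samples was measured. Per the labels and the methods, the authors made cDNA with SMART-Seq HT and Nextera libraries, sequenced single-end 75-base reads, mapped them to mm10 with TopHat2 2.1.1 and Bowtie2, and deposited FPKM from Cufflinks (Cuffdiff 2.2.1). FPKM is by definition scaled to mapped fragments. Whether a further scaling between libraries was applied was not given, and the depth estimate takes the FPKM scaling as it is. The annotation, strand use and treatment of multiply mapped reads were not given in the sources used here.

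FPKM sums ran from 635560 to 785745 per sample. Depth was estimated from steps between low values of 464 genes, and covers counting error only. Genes with at least 1 FPKM in at least 3 of 9 samples were tested (10686) with limma 3.58.1 (R 4.3.3) on log2(FPKM + 1), with an intensity trend, all 9 samples in 1 fit, two-sided, and Benjamini-Hochberg adjustment over all genes at 0.05. The fit was tested on simulated data. Positions and shared 75-base windows came from GENCODE vM21. Promoters came from RefSeq.

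Members, lists and the naming rule were chosen with earlier results of these data known. The text names all members, some genes of each list, and the 5 genes outside the lists most like the members in pattern. Nothing in the sources used here tied replicate numbers to shared mice, and same-number correlations of deviations (-0.06 to 0.16) were not all above 0.1, so no block was used. The alternatives were another pseudocount, other filters, 3 other scalings, a constant prior variance, a fit of 2 groups, a replicate block and leaving out each sample. Those of the other lists were chosen after seeing the data. Some genes of the lists are not reported here.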

Additional observations from a re-analysis of the deposited data

How the results depend on the processing

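Members called in Tumor-AM against Ctrl-AM numbered 5, 1 without a filter, and 2 to 5 when 1 sample was left out. In the other comparisons they numbered 10 when any 1 sample was left out. The median log2 changes of the members moved with a pseudocount of 0.1, to 0.83 in Tumor-AM against Ctrl-AM, 2.88 in Tumor-macrophage against Tumor-AM and 3.78 in Tumor-macrophage against Ctrl-AM, where a filter of 5 FPKM gave 3.09. With 1 sample left out they ran from 0.42 to 0.64, from 2.16 to 2.52 and from 2.83 to 3.05. None of the members changed direction under the alternatives run, while Ifngr1 and Ciita, which did not pass in Tumor-AM against Ctrl-AM, changed sign under 6 and 5 of 18. Of 108 alternative values of these counts and medians, 98 stayed within their limits. Quantile normalization, TPM, median-ratio scaling, a constant prior variance and the fit of 2 groups gave 4 members, without Igtp. In Tumor-AM against Ctrl-AM, 69.1% of 1100 calls over all genes were higher, 36.6% of 1299 after rescaling to TPM, which moved the median of all genes to -0.11, and 57.6% after quantile normalization. In Tumor-macrophage against Ctrl-AM the share of higher calls was 50.5%, and 32.6% with TPM (median -0.22). With the replicate number as a block, 5, 10 and 10 members were called, and 938 genes in Tumor-AM against Ctrl-AM. The numbers are not known to mark shared mice. Of the Tumor-AM samples, 2 of 3 correlated best with the Ctrl-AM sample of their own number, and of the Tumor-macrophage samples 3 of 3 with the Tumor-AM sample (r = 0.026 to 0.109) and 1 of 3 with the Ctrl-AM sample. Without a filter 505 genes were called in Tumor-AM against Ctrl-AM, and 538 or 549 without the first or the third Ctrl-AM sample. The causes were not tested. Depth limits statements on Gbp5 in AMs.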
